A study of Mus musculus with 24 samples.

Results

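Cux2-lineage callosal projection neurons (Cux2 CPN) were compared between E18.5 (E, embryonic day) and P1 (P, postnatal day), the collections on either side of birth. The comparison covers 7777 of the 9767 genes in the deposited expression table. A gene was included when it reached at least 10 FPKM (fragments per kilobase of transcript, scaled to the number of mapped fragments) in at least 1 of the 2 groups. Small RNA rows, unplaced clone rows and predicted Gm genes listed at 0 throughout a neuron class were left out. Of the included genes, 6954 reached the minimum at both ages, 445 at E18.5 only and 378 at P1 only.

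Both groups came from Cux2-CreERT2:Ai14 mice, with the strain labelled C57BL/6 and given in the study's methods as a mixed C57BL/6J background. CreERT2 is a tamoxifen-dependent recombinase, here expressed from the Cux2 locus, and Ai14 is a reporter that makes the red fluorescent protein tdTomato after recombination. Pregnant dams were injected with 4-hydroxytamoxifen at 1 mg per 10 g of body weight on the day before the E18.5 collection. Labeled cells were sorted from somatosensory and motor cortex, so the time from induction to sorting rose with age and cannot be told apart from it. Males carrying both alleles in the homozygous state were mated to wild-type females, each library pooled animals of both sexes from a pair of litters, and the Cre line is known to label some interneurons as well. The Tle4-lineage corticothalamic projection neurons (Tle4 CThPN) that serve as the other class were Tle4-2A-CreERT2:Ai14 mice of the same strain, collected at the same ages after the same injection.

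Each group was sequenced as 2 libraries, which makes 4 of the 24 libraries of the experiment, and the table gives 1 value per gene and group computed over both. There is therefore no error, test or replicate check for any value here. The number of reads behind each value is unknown, because FPKM do not keep it. Differences are P1 minus E18.5 on the log2(FPKM + 1) scale, on which changes of weakly expressed genes come out smaller than on FPKM alone. A gene is said to have risen or fallen when this difference was at least 1, a 2-fold change of FPKM + 1.

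Callosal neurons of the upper layers send axons across the midline to the other hemisphere. Around birth in the mouse they are finishing their migration, their axons are reaching or crossing the midline under the control of secreted and membrane-bound guidance cues, and synapses are only beginning to form. Birth also brings the animal to lower temperature and higher oxygen, changes its fuel supply and separates it from maternal hormones and rhythms.

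Most genes kept their level across birth. The median difference was -0.02 on the log2 scale, 90% of genes lay between -0.66 and 0.67, and 82.2% differed by less than 0.5. In Cux2 CPN 175 of the 7777 genes (2.25%) rose and 108 (1.39%) fell. With the limit of 1.5 that the study set for fold changes, 58 (0.746%) rose and 25 (0.321%) fell. These splits depend on scaling, since setting the summed FPKM of the included genes equal at both ages gave 126 genes higher and 169 lower, and moved the median of all genes to -0.15. The ratio of the sums, P1 over E18.5, was 1.10, and 1.02 without genes of up to 300 nt of exons. With those short genes left out of the sums, an alternative chosen after the values were seen, 164 genes were higher and 114 lower. Median-ratio scaling gave 180 higher and 104 lower. Among the 6954 genes at the minimum at both ages, 71 rose and 46 fell. The other risen and fallen genes entered through the age at which they were high.

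**Figure D1:**
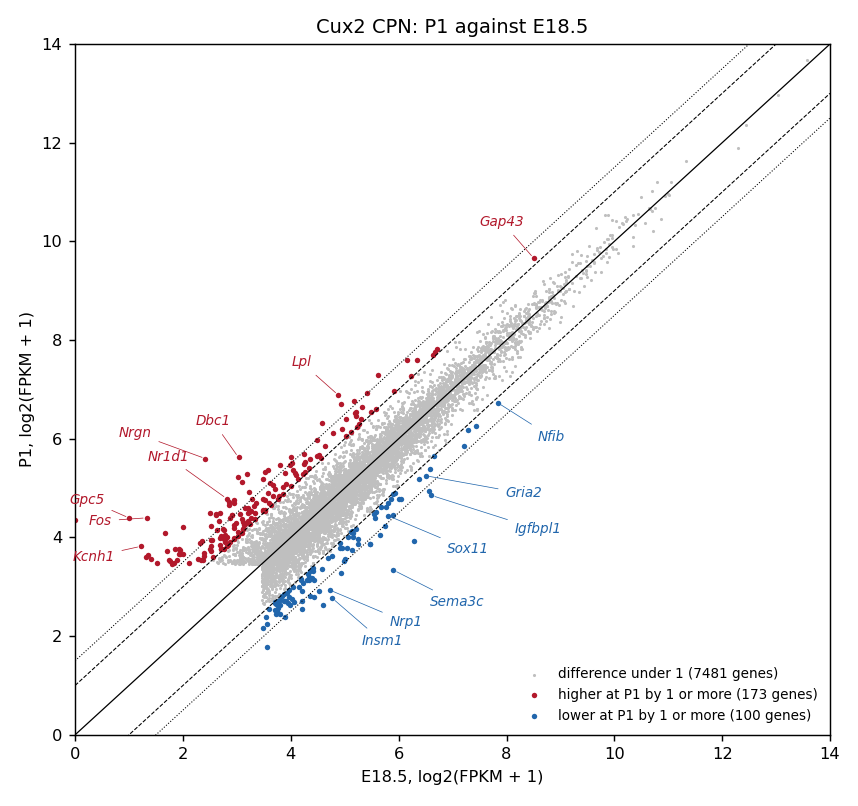
Expression of genes in Cux2 CPN at P1 against E18.5, each axis as log2(FPKM + 1), 1 point per gene, without genes of up to 300 nt of exons. The solid line marks equal levels, dashed lines a difference of 1 and dotted lines a difference of 1.5. The 173 genes that rose and the 100 that fell lie mostly at low and middle levels, and Gap43 is the risen gene with the highest level.

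Rises and falls are ranked here among genes with more than 300 nt of exons, or no annotated length, and a symbol on 1 row only. This leaves out 8 fallen and 2 risen short genes, 7 and 1 of them listed at 0 at the other age. The 12 largest rises had different functions. Nrgn, which encodes neurogranin, a calmodulin-binding protein of the postsynapse, rose from 4.34 to 47.4 FPKM, a ratio of 10.9 (chromosome 9 of NCBIM37, 37352078 to 37360330). The immediate early gene Fos, a transcription factor induced by activity and by handling of tissue, rose from 1.51 to 20.1 FPKM (chromosome 12, 86814840 to 86818223). Gpc5, a glypican that carries heparan sulfate at the cell surface, rose from 1.00 to 20.0 FPKM, and the potassium channel gene Kcnh1 from 1.34 to 13.1 FPKM. These 4 genes were all under 5 FPKM before birth and above 10 FPKM after it.

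Vesicle genes were among these 12. Synpr, which encodes the vesicle protein synaptoporin, rose from 1.67 to 10.8 FPKM. Cadps2, which primes dense-core vesicles for release, rose from 3.02 to 17.5 FPKM. The others were Dbc1 (7.17 to 48.2 FPKM), the actin-binding Klhl1 (2.17 to 15.9), caveolin 1 (Cav1, 1.56 to 11.5), the G protein subunit Gng4 (11.1 at P1, a difference of 2.28), the selenoprotein Selm (7.07 to 36.6) and 5730408K05Rik, which was listed at 0 at E18.5 and had 19.4 FPKM at P1. None of the 12 reached 10 FPKM at E18.5, so each entered the comparison through its P1 value.

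Among the 12 largest falls by the same ranking, the first was of a guidance cue. Sema3c, a secreted semaphorin, fell from 58.8 to 9.11 FPKM, so that the E18.5 level was 6.46 times that at P1 (chromosome 5, 17080099 to 17236086). Its receptor subunit Nrp1 (neuropilin 1) fell from 25.4 to 6.64 FPKM (chromosome 8, 130882973 to 131029362). Insm1, a zinc-finger factor of neuronal progenitors, fell from 26.3 to 5.81 FPKM. Igfbpl1, which is expressed in newborn neurons, fell from 96.5 to 27.9 FPKM. Dpy19l1, implicated in radial migration, fell from 23.2 to 5.18 FPKM, and the growth factor receptor gene Fgfr1 from 17.5 to 4.87 FPKM. The remaining falls among the 12 largest were of Rai14, the phosphatase Ptpn4, the somatostatin receptor Sstr2, Frmd4b, 2610307P16Rik and B230307C23Rik. B230307C23Rik did not stay low, with 77.0 FPKM at E18.5, 14.2 at P1, 86.3 at P3 and 22.7 at P7.

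Values near the 1.5 limit show how continuous the differences were. Just inside it were Cgref1 (8.71 to 26.6 FPKM, 1.51) and Usp9x (52.8 to 17.9 FPKM, -1.51), and just outside were Hspb3 (21.4 to 61.9 FPKM, 1.49) and Phip (17.4 to 5.56 FPKM, -1.49).

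Genes that fell had longer exons than the rest. Their exons covered a median of 5582.5 nt (100 genes), against 3239 nt for the genes that rose (171) and 3751 nt over all 7707 with an annotated length, each without genes of up to 300 nt. Between the 10% of genes with the shortest exons and the 10% with the longest, the median difference went from 0.11 to -0.20 in Cux2 CPN and from 0.11 to -0.14 in Tle4 CThPN. After the median of genes of like exon length (10 bins) was subtracted from each gene, an alternative chosen after the values were seen, 189 genes were higher and 83 lower.

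Axon guidance receptors were among the falls. Of 20 guidance receptors that passed the minimum, 4 fell and 0 rose, against 1.39% and 2.25% of all genes, and the median difference was -0.36, or -0.22 with no minimum. Among the 17 that reached the minimum at both ages 2 fell, against 46 of all 6954 such genes. Nrp1 and Unc5d entered through their E18.5 values. Besides Nrp1, the Slit receptor Robo1 fell from 34.0 to 12.3 FPKM, the netrin receptor Unc5d from 20.4 to 7.83 FPKM, and the ephrin receptor Epha3 from 34.7 to 15.1 FPKM. Robo2 (98.9 and 56.3 FPKM), Plxna4 (92.1 and 55.6) and Epha5 (47.9 and 24.3) were lower by less than the limit. Others were higher, such as Plxna1 (34.4 and 57.6 FPKM), Neo1 (41.3 and 61.6) and Epha4 (31.2 and 45.9). Plexin and Eph receptors thus lay on both sides of 0. Of 11 ligands, Sema3c fell, having entered through its E18.5 value, while 0 of the 9 at the minimum at both ages fell, and ephrin-B1 (Efnb1, 26.4 and 13.8 FPKM) and ephrin-B2 (Efnb2, 109 and 74.9 FPKM) were lower by less than the limit. Sema7a, a membrane-anchored semaphorin, had 21.3 and 35.0 FPKM. The median of the ligands was -0.24, or -0.37 with equal sums.

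Transcription factors of early neuronal development were lower as a list. Of 21 that passed the minimum, 19 had a negative difference, with a median of -0.46, where 3734 of all 7777 genes were above 0. Sox11, which drives expression of immature neuronal genes, fell from 54.6 to 20.7 FPKM, and Nfib, a nuclear factor I gene required for midline development, from 228 to 105 FPKM. The fall of Nfib is below the limit, at -0.91, after the adjustment for exon length. Sox4 (517 and 353 FPKM), Neurod6 (442 and 300), Tbr1 (73.7 and 40.6) and Tcf12 (29.5 and 16.1) were lower by less than 1. Klf7 and Nfix were the exceptions, with 75.4 and 89.7 FPKM and with 672 and 681 FPKM. Among 35 chromatin and DNA methylation genes 0 rose and 0 fell, against 2.25% and 1.39% of all genes. Of these 35, 29 were lower and the median was -0.30. Their lowest differences belonged to the Polycomb methyltransferase Ezh2 (40.0 FPKM at E18.5, a difference of -0.90) and the histone variant gene H2afy (174 and 96.0 FPKM). After the adjustment for exon length their median was -0.17.

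Genes that define upper-layer identity did not move together. Cux2 had 73.0 FPKM before and 68.4 after birth, and Cux1 326 and 327 FPKM. Pou3f3 had 64.2 and 41.6 FPKM. In the other direction, the layer 4 factor Rorb went from 9.99 to 18.8 FPKM and Mef2c, a regulator of synapse number, from 285 to 417 FPKM. Of the 20 genes of the list that passed the minimum, Lpl alone passed the limit, 1 of 20 against 2.25% of all genes that rose. The median of 0.23 was 0.40 with no minimum and 0.10 with equal sums. Lpl, which encodes lipoprotein lipase, rose from 28.5 to 117 FPKM (chromosome 8, 71404390 to 71431347). It reached 153 FPKM at P3, had 116 FPKM at P7, and was down to 2.58 FPKM at P21.

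Of 29 genes for migration and the growth cone cytoskeleton, Gap43 alone passed the limit, from 363 to 806 FPKM (chromosome 16, 42248555 to 42340764). This 1 of 29 stands against 2.25% of all genes. Gap43 encodes a membrane protein of growing axons. Tuba1a and Stmn1 were at the top of the list at both ages. Doublecortin (Dcx) had 287 and 242 FPKM, Map2, listed as Mtap2, 268 and 153 FPKM, and the axonal adhesion gene Cntn2 197 and 118 FPKM. The median difference was 0.09, which turned to -0.05 when summed FPKM were set equal. It was 0.07 when short genes were left out of those sums.

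**Figure D2:**
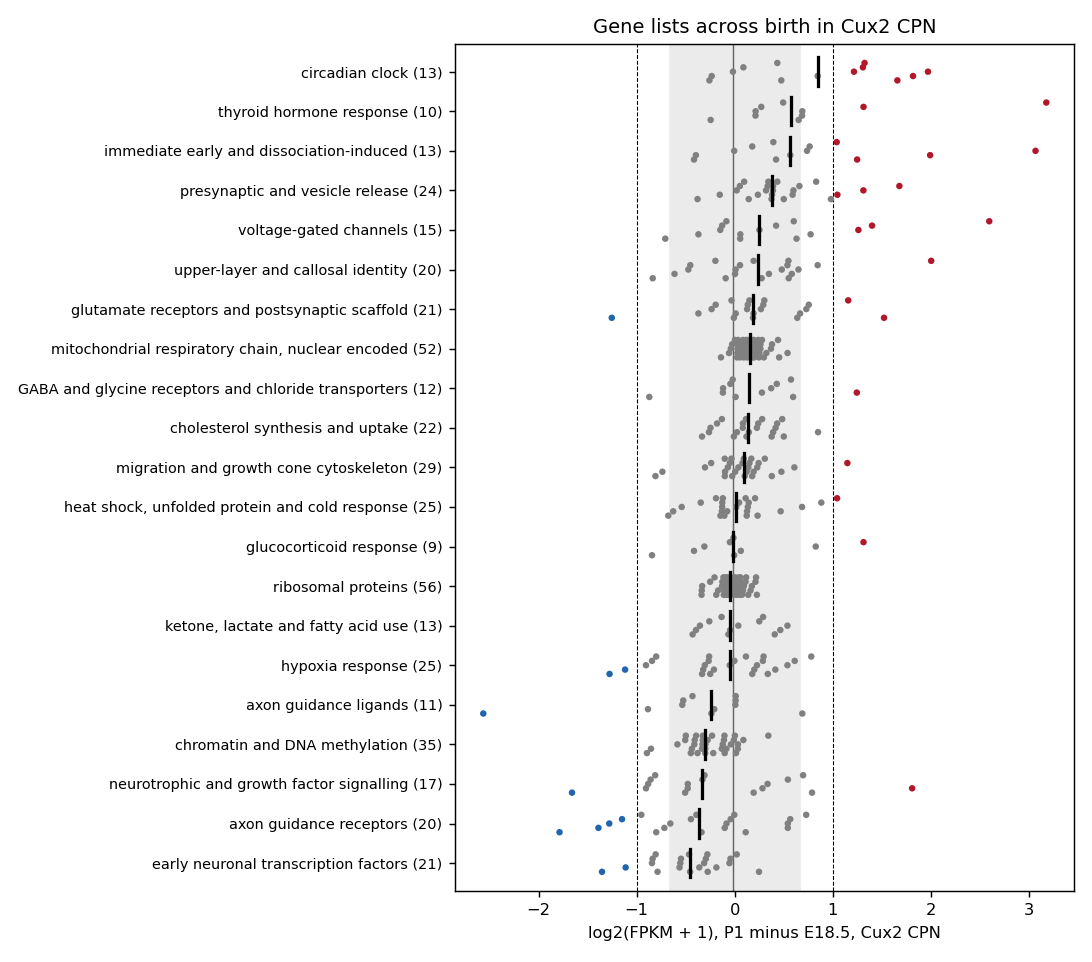
Differences between P1 and E18.5 in Cux2 CPN, on the log2(FPKM + 1) scale, for the members of 21 gene lists that passed the minimum (number in brackets). Points are genes, red where the difference was at least 1 and blue where it was -1 or less, black bars are list medians, the thin line is the median of all genes and the shaded band holds the middle 90% of all genes. Clock, thyroid hormone response and immediate early lists have the highest medians and early neuronal transcription factors the lowest. The medians of the cytoskeleton, cholesterol and heat shock lists turn negative under equal sums. With short genes left out of the sums, of these only the heat shock median does.

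Presynaptic genes were mostly higher after birth. Of 24 that passed the minimum, 3 rose and 0 fell, against 2.25% and 1.39% of all genes, and 22 had a positive difference, against 3734 of all 7777. The median was 0.39, or 0.25 with equal sums. Syntaxin 1a (Stx1a), a component of the fusion complex, rose from 39.2 to 98.8 FPKM, and complexin 2 (Cplx2) from 15.0 to 32.1 FPKM, which is 0.91 on the log2 scale and below the limit with equal sums. The genes that rose all reached the minimum at both ages. Slc17a7, the vesicular glutamate transporter of mature cortical neurons, was at 5.79 FPKM before and 12.4 FPKM after birth. Slc17a6, the transporter of the younger neuron, stayed at 18.4 and 18.7 FPKM.

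Glutamate receptor genes moved both ways. Of 21 glutamate receptor and scaffold genes 2 rose and 1 fell, against 2.25% and 1.39% of all genes, with a median of 0.19, or 0.05 with equal sums. The presynaptic metabotropic receptor gene Grm7 rose from 6.31 to 20.0 FPKM and the NMDA receptor subunit gene Grin3a from 4.20 to 10.6 FPKM, and both entered through their P1 values. Gria2, the AMPA receptor subunit that limits calcium entry, fell from 89.7 to 37.0 FPKM. From P1, the lowest of the 6 ages, Gria2 went up to 48.6 FPKM by P3 and 118 FPKM by P48. Of 12 GABA and glycine receptor and chloride transporter genes, Gabra5 rose from 19.4 to 47.3 FPKM, while Gabra2 had 23.2 and 12.2 FPKM. The median of these 12 was 0.14, and it ranged from 0.01 with equal sums to 0.49 with no minimum. Slc12a5, the chloride exporter that makes GABA inhibitory, was higher at P1, with 4.21 and 9.71 FPKM, but under the minimum and so not counted. With no minimum, 4 of 18 members of this list were higher by at least 1 and 0 lower.

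Among 15 voltage-gated channel genes, 3 rose and 0 fell, against 2.25% and 1.39% of all genes. With Kcnh1 these were the potassium channel-interacting Kcnip4 (8.19 to 23.3 FPKM) and the T-type calcium channel gene Cacna1g (4.63 to 12.5 FPKM). All 3 passed the minimum at P1 only. Among the 10 genes that reached it at both ages 0 rose, against 71 of all 6954 such genes. The median of 0.25 became -0.11 among genes of at least 30 FPKM, 0.12 with equal sums and 0.45 after the adjustment for exon length. The embryonic sodium channel gene Scn3a had 33.3 and 20.0 FPKM.

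Of 17 neurotrophic and growth factor genes, Fgfr1 fell and the secreted IGF-binding protein gene Igfbp5 rose, from 10.4 to 39.1 FPKM, which is 1 of 17 each way against 1.39% and 2.25% of all genes. Fgfr1 entered through its E18.5 value. The median was -0.33, but it was -0.08 with no minimum and -0.06 among genes of at least 30 FPKM. Fgfr2 (21.4 and 11.1 FPKM), Vegfa (28.3 and 14.6) and Igfbp4 (32.0 and 17.2) were lower by less than the limit, and the fibroblast growth factor homologue Fgf13 had 133 and 230 FPKM.

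**Figure D3:**
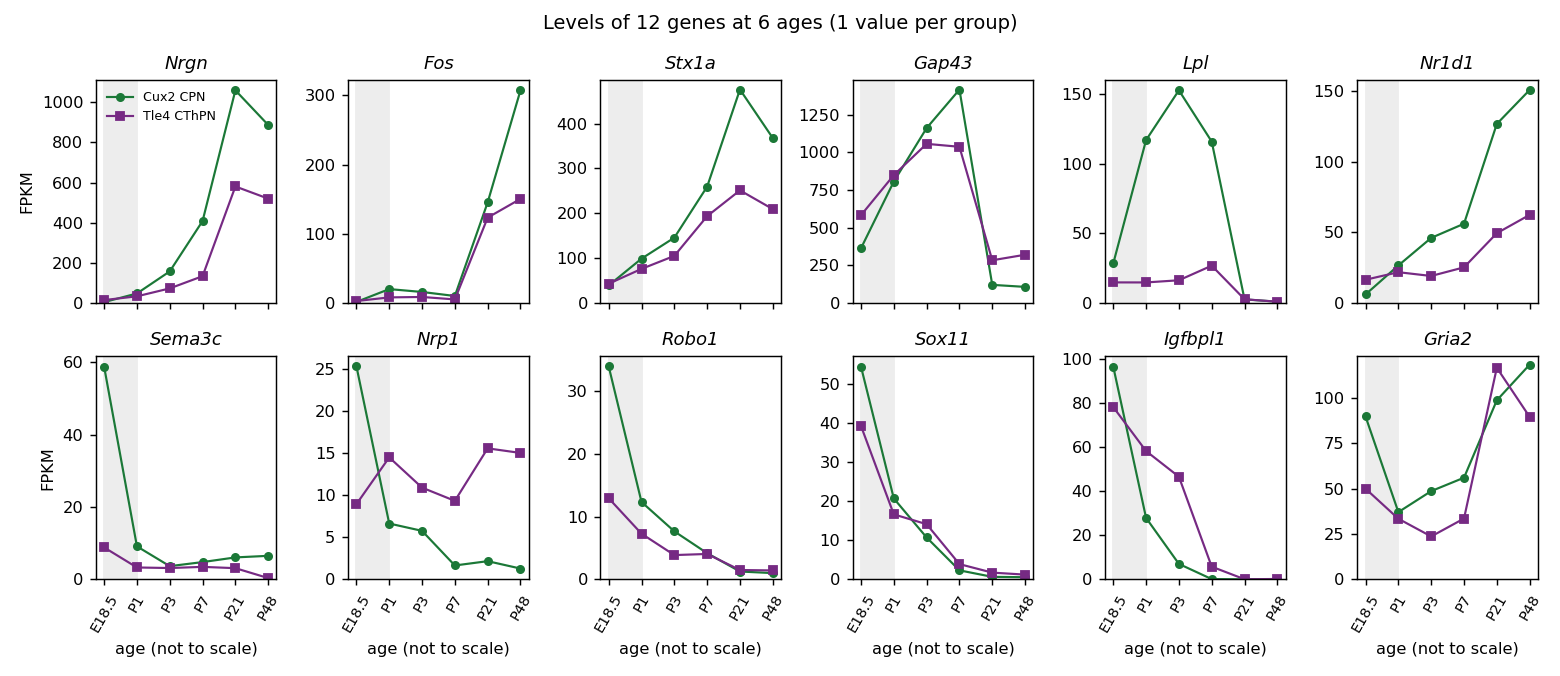
FPKM of 12 genes named in the text at 6 ages in Cux2 CPN (circles) and Tle4 CThPN (squares), 1 value per group, with ages spaced evenly and E18.5 to P1 shaded. The upper row rose across birth in Cux2 CPN and the lower row fell. Lpl and Gap43 come back down by P21, and Gria2 regains its E18.5 level by then.

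The immediate early and dissociation-induced list had a median of 0.57. Of 13 members that passed the minimum, 4 rose and 0 fell, against 2.25% and 1.39% of all genes. Among the 10 at the minimum at both ages 2 rose, against 71 of all 6954 such genes. Fos and Egr1 entered through their P1 values. The 4 were Fos, Egr1 (4.65 to 21.5 FPKM), the MAP kinase phosphatase gene Dusp6 (10.4 to 26.1 FPKM) and Myc (31.5 to 65.9 FPKM). Myc came to 0.90, below the limit, with equal sums. Below the minimum, Nr4a1 was at 0.938 and 4.65 FPKM, Junb at 1.05 and 4.59 FPKM, and Arc at 0.102 and 0.339 FPKM. Jund (29.4 and 22.1 FPKM) was lower. The list therefore held both directions. These genes respond to synaptic activity and to tissue dissociation, and the part of dissociation in the rises was not tested. Fos at P1, 20.1 FPKM, was far below its 307 FPKM at P48 and close to its 15.9 FPKM at P3. The study's methods give a higher papain concentration for dissociation at P48 than at P1, while the labels give the same for all ages.

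Genes of the circadian clock that passed the minimum had the highest median of the 21 lists, 0.85. The member at that median was Rorb, named above as a layer 4 factor, which is also on the upper-layer list. With no minimum their median was 0.52, below the 0.56 of thyroid hormone response genes. The clock is a loop in which Arntl (Bmal1) with Clock or Npas2 activates genes, among them Nr1d1 and Nr1d2, whose products repress Arntl in turn. Of 13 members that passed the minimum, 6 rose and 0 fell, against 2.25% and 1.39% of all genes. Nr1d1 rose from 6.03 to 26.6 FPKM (chromosome 11, 98629246 to 98636647), Nr1d2 from 4.70 to 12.2 FPKM, Npas2 from 6.67 to 26.1 FPKM, Bhlhe40 from 6.74 to 18.2 FPKM, Arntl from 10.9 to 28.8 FPKM and Ciart, listed as Gm129, from 2.49 to 10.0 FPKM. These 6 held the activators Arntl and Npas2 and the repressors Nr1d1 and Nr1d2, and all but Arntl entered through their P1 values.

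The clock members that rose were of low expression. Only Arntl reached the minimum at both ages, none reached 30 FPKM, and the median of the list among genes of at least 30 FPKM was -0.02. Cry1 (23.4 and 25.0 FPKM), Clock (4.17 and 3.48 FPKM) and Per2 (2.35 and 2.75 FPKM) kept their levels within 0.25 on the log2 scale. In Tle4 CThPN the same 13 genes had a median of 0.13. There 1 of them rose, Ciart, from 6.17 to 14.4 FPKM, and 1 fell, Rorb. Npas2 had 16.6 and 25.9 FPKM, Nr1d1 16.5 and 21.8 FPKM, and Arntl 26.5 and 22.4 FPKM. The hour at which animals were collected is not given in the sources used here, so a difference in hour and a difference in age cannot be told apart.

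Clock activators bind the E-box CACGTG, and the hypoxia factors bind ACGTG, which lies within it. The promoters of risen clock genes, a vesicle gene and Sema3c, first among the ranked falls, are shown because they carry these letters. Each is the 250 bases before the start of the gene, 5′ to 3′ on the gene's strand, from RefSeq on GRCm38.p6, with CACGTG or ACGTG on either strand in capitals.
Ciart, chr3:95882229-95882478, minus strand: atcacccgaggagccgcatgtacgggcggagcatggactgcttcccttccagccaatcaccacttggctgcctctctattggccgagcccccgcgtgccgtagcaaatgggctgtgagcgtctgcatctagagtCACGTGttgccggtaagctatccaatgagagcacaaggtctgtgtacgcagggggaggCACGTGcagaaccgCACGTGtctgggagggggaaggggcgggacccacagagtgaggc
Nr1d1, chr11:98775378-98775627, minus strand: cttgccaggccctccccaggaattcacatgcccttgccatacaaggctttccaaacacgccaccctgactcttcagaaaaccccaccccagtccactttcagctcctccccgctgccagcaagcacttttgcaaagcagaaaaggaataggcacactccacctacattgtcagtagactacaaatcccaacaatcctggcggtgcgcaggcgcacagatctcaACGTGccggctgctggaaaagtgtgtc
Npas2, chr1:39194022-39194271, plus strand: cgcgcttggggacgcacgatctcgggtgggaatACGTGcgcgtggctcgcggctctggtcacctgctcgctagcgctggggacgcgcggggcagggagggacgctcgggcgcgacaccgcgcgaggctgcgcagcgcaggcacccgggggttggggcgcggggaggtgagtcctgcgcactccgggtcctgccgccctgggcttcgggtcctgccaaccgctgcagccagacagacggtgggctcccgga
Cadps2, chr6:23839422-23839671, minus strand: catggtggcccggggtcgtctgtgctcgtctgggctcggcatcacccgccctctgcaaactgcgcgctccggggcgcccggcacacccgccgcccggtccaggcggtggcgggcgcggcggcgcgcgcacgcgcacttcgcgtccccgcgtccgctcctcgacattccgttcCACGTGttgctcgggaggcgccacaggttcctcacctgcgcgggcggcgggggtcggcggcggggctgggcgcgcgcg
Sema3c, chr5:17574566-17574815, plus strand: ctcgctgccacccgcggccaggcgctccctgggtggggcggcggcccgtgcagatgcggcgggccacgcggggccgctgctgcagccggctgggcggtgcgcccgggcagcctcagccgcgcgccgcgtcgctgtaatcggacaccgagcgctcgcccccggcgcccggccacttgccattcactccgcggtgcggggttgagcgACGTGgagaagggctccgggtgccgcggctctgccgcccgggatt

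Ciart had 3 E-boxes, starting 116, 58 and 44 bases before its start, and Cadps2 had 1, 78 bases before. Over all promoters the letters did not set the risen genes apart. Within 250 bases before and 50 after the start, CACGTG was present for 14.29% of 119 genes that rose and had a promoter in the table, 5.80% of 69 that fell and 12.69% of all 5609. For ACGTG the shares were 36.97%, 14.49% and 31.32%. The AP-1 site TGACTCA, which Fos and Jun proteins bind, was present for 2.52%, 7.25% and 3.71%, and the cyclic AMP response element TGACGTCA for 2.52%, 2.90% and 4.23%. The Egr site GCGTGGGCG was present for 1.68%, 1.45% and 1.53%, and the glucocorticoid element for 0%, 0% and 0.02%. A match of letters is a description and not a bound site.

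Of the other lists chosen for what changes at birth, thyroid hormone response genes were the highest. Of 10 that passed the minimum, 9 had a positive difference, against 3734 of all 7777 genes, and the median was 0.57. Nrgn and Klf9 rose, 2 of 10 against 2.25% of all genes, Klf9 from 4.74 to 13.3 FPKM, and both entered through their P1 values. The astrocyte marker Sparcl1 (13.6 FPKM at E18.5, a difference of 0.65) and the oligodendrocyte marker Mbp (7.11 and 10.4 FPKM) are also on this list. The receptor genes differed in level, with Thra at 365 and 423 FPKM and Thrb at 0.915 and 2.64 FPKM. Klf9 is also the 1 gene of 9 that rose among glucocorticoid response genes, whose median was -0.01. On that list Sgk1 had 40.1 and 71.8 FPKM, Tsc22d3 33.3 and 32.2 FPKM, and Fkbp5 25.1 and 24.9 FPKM. The glucocorticoid receptor gene Nr3c1 had 1.21 and 5.75 FPKM, under the minimum.

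Hypoxia response genes were split. Of 25, 2 fell and 0 rose, against 1.39% and 2.25% of all genes. The median was -0.05, or -0.19 with equal sums and 0.18 among genes of at least 30 FPKM. The falls were of the demethylase gene Kdm3a (24.9 to 10.9 FPKM) and Ankrd37 (12.2 to 4.45 FPKM), which entered through its E18.5 value. Ddit4 (14.5 and 7.61 FPKM) and Mxi1 (14.4 and 7.84 FPKM) were lower by less than the limit, as was Vegfa. The glycolytic genes Pfkp (37.3 and 64.7 FPKM) and Ldha (284 and 413 FPKM) of this list were higher by less than the limit.

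Of 25 heat shock, unfolded protein and cold response genes, Asns alone rose, from 37.4 to 78.2 FPKM, which is 0.91 and under the limit with equal sums. Asns encodes asparagine synthetase, and 1 of 25 stands against 2.25% of all genes. The cold-inducible RNA-binding protein genes Rbm3 (118 and 219 FPKM) and Cirbp (179 and 289 FPKM) were higher by less than the limit, and in Tle4 CThPN both passed it, at 66.2 and 189 FPKM and at 102 and 252 FPKM. The chaperone genes Hspa5 (208 and 188 FPKM) and Hsp90aa1 (423 and 332 FPKM) were not higher.

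Metabolic and ribosomal genes changed little. Of 52 nuclear genes of the respiratory chain 48 had a positive difference, against 3734 of all 7777 genes, but the median was 0.15 and 0 passed the limit, and with equal sums the median was 0.01. Ndufa4, with the largest difference among them, had 592 and 860 FPKM. Of 22 cholesterol genes 0 passed the limit, with Mvk at 19.9 and 36.7 FPKM. Their median was 0.13, or -0.01 with equal sums and 0.11 with short genes left out of the sums. In Tle4 CThPN the cholesterol genes had a median of 0.45. The 13 genes of ketone, lactate and fatty acid use had a median of -0.05. It was -0.18 with equal sums and 0.29 among genes of at least 30 FPKM. The 56 ribosomal protein genes had a median of -0.05, or -0.18 with equal sums. In both lists 0 genes passed the limit. Over all genes 2.25% rose and 1.39% fell, so 0 in lists of these sizes is near that share.

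The same interval in Tle4 CThPN shares no library with that in Cux2 CPN. Of 7678 genes that passed the minimum there, 105 (1.37%) rose and 46 (0.599%) fell, and 40 (0.521%) and 12 (0.156%) did so by 1.5 or more. Without genes of up to 300 nt of exons the 12 became 2, and the 25 in Cux2 CPN became 17. The median was 0.06. Across the 7184 genes that passed the minimum in both classes and were not short, the differences had a Pearson correlation of 0.65 and a Spearman correlation of 0.66. Genes are not independent replicates, and all the libraries share a protocol and the dependence on exon length.

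Genes past the limit in Cux2 CPN mostly had the same sign in Tle4 CThPN, with smaller values there, as a choice by Cux2 CPN values favors. Of these 7184 genes, rises numbered 127 for Cux2 CPN and 64 for Tle4 CThPN. The 32 shared rises were 25.2% of the former and 50.0% of the latter. For the falls the numbers were 76, 25 and 8, or 10.5% and 32.0%. The 127 genes had a median of 1.28 in Cux2 CPN, the value they were chosen by. In Tle4 CThPN their median was 0.63 and 111 were above 0. The 76 genes had medians of -1.15 and -0.65, and 71 were below 0 in Tle4 CThPN. Over all 7184 genes 73.4% had the same sign in both classes, and 0 rose in either class and fell in the other. Gng4 (2.28 and 2.18), Egr1 (1.99 and 1.77) and Sox11 (-1.35 and -1.19) had similar differences in both classes.

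**Figure D4:**
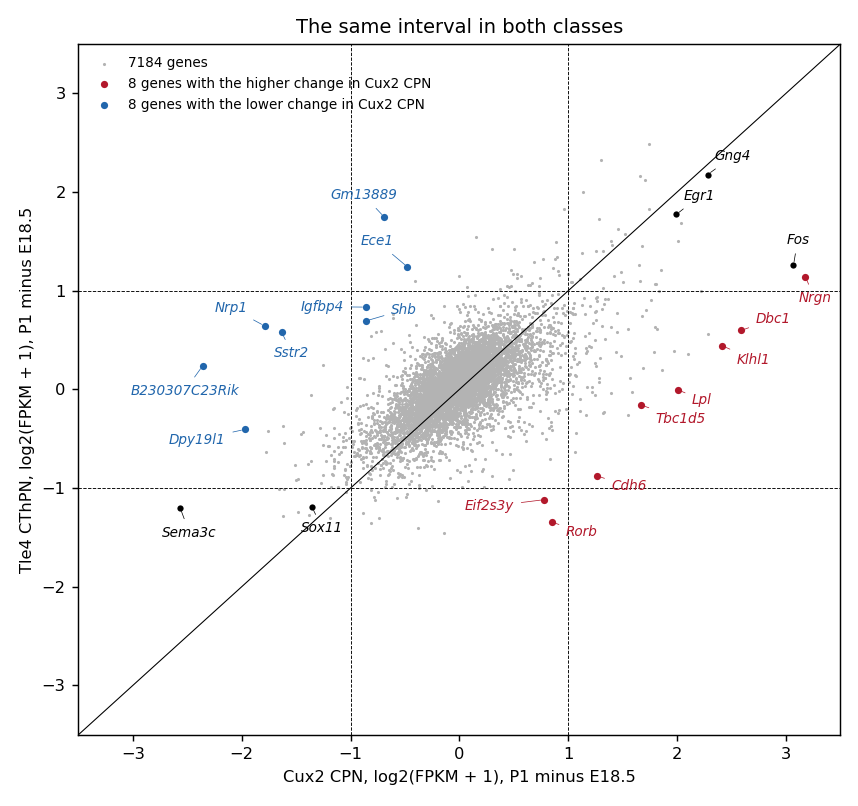
Difference between P1 and E18.5 on the log2(FPKM + 1) scale in Tle4 CThPN against that in Cux2 CPN, 1 point per gene, for the 7184 genes that passed the minimum in both classes. Colored points are the 8 genes in each direction whose differences were furthest apart, black points are genes named in the text, the solid line marks equal differences and dashed lines mark 1 and -1.

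Among genes that reached 10 FPKM in both classes, the 8 whose change was furthest above that in Tle4 CThPN included genes of layer identity. Rorb, higher in Cux2 CPN at P1 as given above, fell in Tle4 CThPN from 12.6 to 4.37 FPKM. The adhesion gene Cdh6 rose from 12.1 to 30.4 FPKM in Cux2 CPN. Its values in Tle4 CThPN were 22.3 and 11.7 FPKM. Lpl was at 14.8 FPKM at both ages in Tle4 CThPN, against its rise to 117 FPKM in Cux2 CPN. Nrgn, Dbc1, Klhl1 and Tbc1d5 were also in this group, and Nrgn rose in both classes, from 14.5 to 33.1 FPKM in Tle4 CThPN. The differences between the classes were from 1.83 to 2.19 on the log2 scale. The remaining gene was the Y-linked Eif2s3y, with differences of 0.78 in Cux2 CPN and -1.12 in Tle4 CThPN. It is expressed in male cells, and the part of the sex make-up of the pools in other results was not tested.

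In the opposite direction, among the same genes, Nrp1 fell in Cux2 CPN and had 8.94 and 14.5 FPKM in Tle4 CThPN, a difference between the classes of -2.43. Sstr2 fell from 20.6 to 5.96 FPKM in Cux2 CPN. The Tle4 CThPN values were 18.9 and 28.8 FPKM. Gm13889 rose from 3.49 to 14.1 FPKM in Tle4 CThPN, while its difference in Cux2 CPN was -0.69. Ece1, which encodes endothelin-converting enzyme, rose from 9.53 to 23.9 FPKM in Tle4 CThPN, against 17.8 and 12.5 FPKM in Cux2 CPN. B230307C23Rik, Dpy19l1, Igfbp4 and Shb completed this group. With 1 value per group, these class differences were not tested.

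By their medians, the genes that rose were higher still after P1 and those that fell were lower still. The median level of the 173 risen genes without short ones was 7.89 FPKM at E18.5 and 22.2 FPKM at P1 in Cux2 CPN, by which they were chosen, and then 29.5 FPKM at P3 and 45.2 at P7. It was 53.7 FPKM by P21 and 40.5 by P48. Only 16 of them had their highest level at P1, while 57 had it at P7 and 55 at P21. The 100 fallen genes had medians of 23.1 and 8.80 FPKM at E18.5 and P1, and of 7.64 FPKM at P3 and 4.79 at P7. By P21 the median was 5.53 FPKM and by P48 it was 6.31. P1 was the lowest age for 13 of them. The median over all 7754 genes without short ones stayed between 27.1 and 30.1 FPKM at the 6 ages in Cux2 CPN. The later ages are other libraries.

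Nrgn continued from 47.4 FPKM at P1 to 157 at P3, 408 at P7 and 1060 at P21 in Cux2 CPN. Slc17a7 went from 12.4 to 1063 FPKM between P1 and P21. Sema3c was at 3.64 FPKM at P3 and at 6.49 FPKM or less from then on, and Igfbpl1 was at 6.99 FPKM at P3 and listed at 0 at P21 and P48.

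Cux2 CPN carried most markers of their label at both ages. The median difference was -0.145 for the upper-layer callosal markers and -0.22 for the glutamatergic markers. Of 8 upper-layer callosal markers 7 reached 10 FPKM at both ages, as did 6 of 8 glutamatergic markers, and the others (Rorb, Nrgn and Slc17a7) reached it at P1 only, while Tle4 (7.74 and 6.32 FPKM) and Fezf2 (3.51 and 3.18 FPKM) did not. Deep-layer markers were not absent, with Sox5 at 81.7 and 70.2 FPKM and Bcl11b at 23.3 and 14.7 FPKM, and 5 of 12 passed the minimum.

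Interneuron markers were present at both ages. Of 15 listed, 13 passed the minimum, and 0 rose and 0 fell, against 2.25% and 1.39% of all genes. The summed level of the 15 was 694 FPKM at E18.5 and 783 FPKM at P1. Without Npy, which was higher in Tle4 CThPN (1334 and 816 FPKM), the sum of the other 14 was 461 and 368 FPKM. Lhx6, a factor of interneurons from the medial ganglionic eminence, had 114 and 67.8 FPKM in Cux2 CPN, against 2.95 and 2.16 FPKM in Tle4 CThPN. Dlx1 had 72.8 and 42.8 FPKM, Gad1 19.0 FPKM at E18.5 with a difference of -0.03, Gad2 19.5 and 12.1 FPKM, Sst 28.7 and 40.9 FPKM and Npy 233 and 415 FPKM. Lhx6 and Dlx1 were lower after birth and both neuropeptide genes higher, and the list's median was -0.23. Fewer cells of a type and less RNA per cell cannot be told apart in sorted pools. The study sequenced single cells of both labeled populations and found a small share positive for Gad1 or Gad2. It judged contamination by interneurons to matter little for its results. The part of interneurons in the changes above was not tested here.

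Most progenitor markers were lower at P1. Of 16 chosen, 8 were listed and 5 passed the minimum. Of these 5, 2 fell (Insm1 and Sstr2), against 1.39% of all genes. The summed level of the 8 was 155 FPKM at E18.5 and 95.9 FPKM at P1. Insm1 and Sstr2 are also among the 12 largest falls, and both entered through their E18.5 values. Sstr2 was higher again at P7, with 30.3 FPKM in Cux2 CPN. Fabp7, a radial glial gene, had 78.3 and 52.5 FPKM, while Gadd45g was higher at P1, by 0.57. Of 15 cycling markers chosen, only 3 were listed. They were Pcna (82.0 and 78.5 FPKM), Rrm2 (20.3 FPKM at E18.5, a difference of -0.16) and Tyms (13.4 and 10.9 FPKM). Whether younger cells were left in the E18.5 pool was not tested.

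Other cell types were at low levels. Not all chosen markers were listed, with 4 of 15 for endothelial, mural and meningeal cells. Summed marker levels at E18.5 and P1 were 36.0 and 48.1 FPKM for 9 astrocyte genes, 16.3 and 19.3 FPKM for 6 oligodendrocyte lineage genes, 7.82 and 13.7 FPKM for 5 microglial genes, 1.69 and 4.10 FPKM for 4 endothelial, mural and meningeal genes, and 26.2 and 38.0 FPKM for 4 hemoglobin genes. Of the 5 Cajal-Retzius and subplate genes Reln alone passed the minimum, with 11.6 FPKM at P1 and a difference of -0.14. C1qa was listed at 0 at E18.5 and Slco1a4 at both ages. All 5 of these non-neuronal sums were higher at P1, and their part in the rises was not tested.

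**Figure D5:**
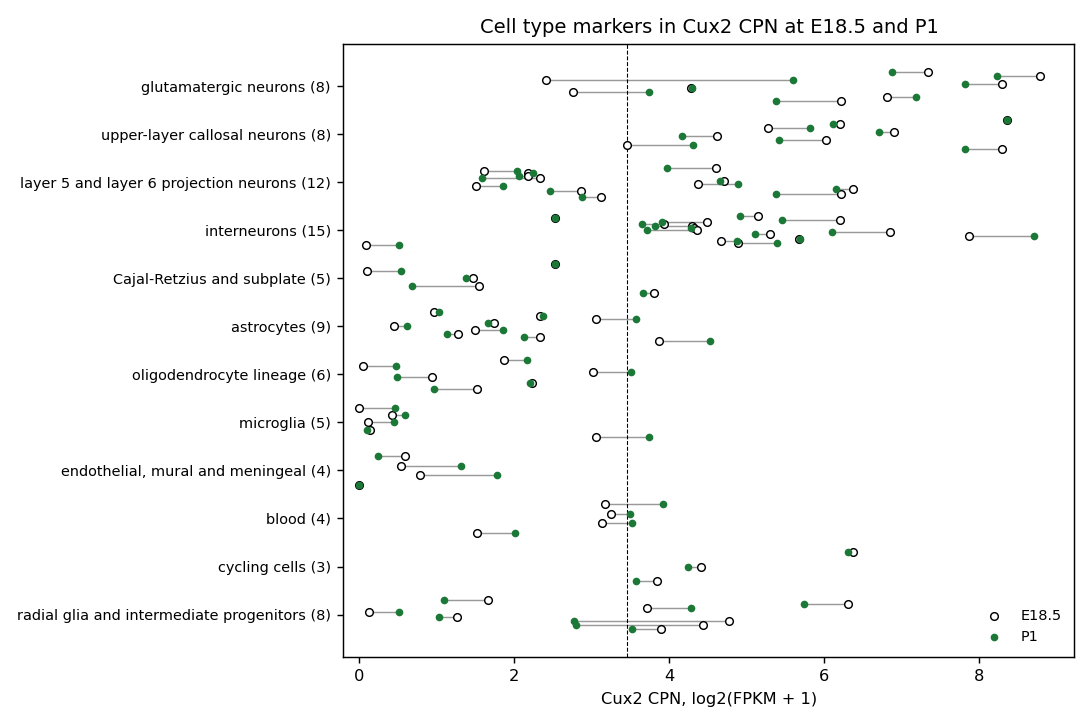
Levels of cell type markers in Cux2 CPN as log2(FPKM + 1) at E18.5 (open circles) and P1 (filled circles), 1 line per gene, with the number of listed genes in brackets and a dashed line at 10 FPKM. Most glutamatergic, upper-layer and interneuron markers lie right of the dashed line, and glial, vascular and blood markers mostly left of it.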

How the data were processed

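RNA-seq libraries were made by the submitters from sorted tdTomato+ cells (SMART-Seq v4, Nextera XT), trimmed with Trimmomatic, aligned with TopHat2 to NCBIM37 (mm9) and quantified with Cuffdiff. The deposited values are FPKM, 1 per gene and group over 2 libraries; the authors stated a lower bound for depth only, and the option used to scale libraries is not given in the sources used here. The papain concentration is 12 U/ml in the labels and lower in the methods for these ages.

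From the FPKM, log2(FPKM + 1) differences were computed in Python 3.11.15 (numpy 2.4.6, pandas 2.3.3, scipy 1.17.1, matplotlib 3.10.9). Of 9767 rows, 118 small RNA or clone rows and 26 Gm rows were dropped and 1846 did not reach 10 FPKM. The table is an FPKM file, so no test was run, and counts are read against the share of all genes. Exon lengths and positions came from GENCODE on NCBIM37 (7730 of 7777 genes), promoters from RefSeq. Older symbols were matched for 8 list genes. The computation was tested on simulated data.

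Genes named are the 12 largest rises and 12 largest falls with a symbol on 1 row and not annotated with exons of up to 300 nt, up to 4 genes of each list with a difference of 0.5 or more, genes that mark the classes, the 8 genes in each direction that differ most between classes, up to 3 markers of each cell type, and genes next to the 1.5 limit. Some genes that these rules select are not reported here. Further list members named beside them were chosen after their values were seen. The comparison, its lists and its rules were chosen with earlier results of these data known.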

Additional observations from a re-analysis of the deposited data

Results flagged for a closer look

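Among genes that passed the minimum in either class, 2 moved past the limit in opposite directions in the classes. In Cux2 CPN, Spink10 was at 1.86 FPKM before and 10.1 FPKM after birth. In Tle4 CThPN its values were 5.38 and 1.60 FPKM, so that the changes differed by 3.25 on the log2 scale. Gm7335 was listed at 0 at E18.5 and at 1.07 FPKM at P1 in Cux2 CPN while Tle4 CThPN had 10.9 and 3.23 FPKM, so that the changes differed by 2.55. For neither gene was this difference tested, and each was below 10 FPKM at both ages in 1 class.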

How the results depend on the processing

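The counts of genes past a limit changed most with the minimum, which also sets how many genes are compared. In Cux2 CPN, a minimum of 30 FPKM gave 63 genes higher and 46 lower by 1, and 16 and 13 by 1.5, and no minimum gave 328 and 99 genes higher by 1 and by 1.5. Equal sums gave 126 genes higher and 169 lower by 1, the only setting with more falls than rises in Cux2 CPN. In Tle4 CThPN, a minimum of 30 FPKM gave 42 and 16 genes by 1, and 15 and 5 by 1.5, and no minimum gave 185 genes higher by 1. Keeping all rows there gave 62 higher and 24 lower by 1.5, and leaving out short genes, with or without rows listed at 0 and repeated symbols, gave 2 lower by 1.5. The other counts stayed within 1.5 times their value with a pseudocount of 0.1, median-ratio scaling, equal sums without short genes and exon length adjustment. Of these, the last 2, and above them the removal of rows at 0 with repeated symbols and, in Tle4 CThPN only, the keeping of all rows, were chosen after the values were seen. Of 625 alternative values for named genes, 611 kept their direction and side of the limit, 7 came to pass it, 4 no longer passed it and 3 below it changed sign; 11 of 223 alternative list medians changed sign. Leaving out a library could not be run. No paired analysis was possible because the table holds 1 value per group and its columns carry no replicate numbers. FPKM keep no depth, so the counting error of low genes is unknown.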
